A study of Homo sapiens with 3 samples.

Results

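The tumour necrosis factor (TNF) superfamily comprises ligands, the receptors that bind them and the TRAF adaptors that carry the receptor signal into the cell. The genes described here were taken by symbol, namely every gene beginning with TNFSF or TNFRSF, TRAF1 to TRAF7, and TNF, LTB, LTBR, FAS, CD40, CD70, EDAR, EDA2R and NGFR. In the deposited data 36 of 16149 genes met this rule, and the parent library listed 30 of them, that of subclone 1 33 and that of subclone 2 31. Of the named genes LTB, CD40, CD70, EDA2R and NGFR were listed in none of the 3 libraries.

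The expression of mRNA was sequenced in 3 cultured human hepatocellular carcinoma (HCC) cell lines with 1 library each. All 3 carry the cell line label HCCLM3, and the labels give the parent a low ability to metastasize, subclone 1 a higher one with the lung as its target, and subclone 2 a dual one to the lung and the celiac lymph node. In the methods of the study the parental line is HCCLM3-R, a derivative that expresses red fluorescent protein and is described there as highly metastatic, and the subclones are monoclonal lines grown from single cells of metastases in nude mice. The sources do not name which monoclone was sequenced, no treatment separates the lines, and each subclone stands for 1 clone.

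Ligands of this family are mostly trimeric membrane proteins that can also be shed. Receptors with a death domain, such as TNFRSF1A, FAS and the TRAIL receptors TNFRSF10A and TNFRSF10B, can recruit FADD or TRADD and activate caspases, whereas receptors without a death domain bind TRAF proteins directly and pass the signal to NF-kB and to stress kinases. Decoy receptors bind ligand without passing a full signal. In liver cells TNFRSF1A is the receptor through which TNF acts on both survival and cell death.

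The deposited unit is RPKM, the reads of a gene divided by its length and by the size of the library, so that it permits comparison between genes as well as libraries. Library totals read from the RPKM were 4488825 reads for the parent, 4609696 reads for subclone 1 and 4725150 reads for subclone 2, and all 36 genes of the family could be given whole reads. Intervals in parentheses are exact 95% intervals from these reads (Poisson for a level, Clopper-Pearson for a ratio), and they cover counting error only. With 1 library per cell line no test between lines was possible and no p-value was computed. A ratio whose interval excludes 1 therefore separates 2 libraries, not 2 cell lines. As an epithelial check, KRT8 stood at 1614 RPKM in the parent, against 1641 in subclone 1 and 1742 in subclone 2, while the hepatocyte products TTR and SERPINA1 stayed at or below 0.451 RPKM in every library. ALB, the main hepatocyte secretory product, was 2.46 RPKM in the parent and 49.5 and 68.8 in subclones 1 and 2. KRT18, another epithelial keratin, was 953.1, 1075 and 1048 RPKM. APOB, an apolipoprotein of liver cells, was like ALB more than 2-fold higher in both subclones (0.300, 1.23 and 4.17 RPKM, ratios of 4.10 and 13.9). The other hepatocyte and HCC markers were HNF4A, at 11.7, 11.85 and 16.0 RPKM, AFP, at 2.41, 4.16 and 4.27 RPKM, and APOA1, at 0.25, 0.73 and 0.47 RPKM.

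Receptors dominated the expression of the family. The RPKM of the 36 genes summed to 581.5 in the parent, 681.8 RPKM in subclone 1 and 754.7 RPKM in subclone 2. Death-domain receptors held 279, 320.5 and 372.4 RPKM of these sums, in the same order of libraries, and TRAF-binding receptors without a death domain held 224.9, 260.9 and 274.5 RPKM. The 9 listed ligands together reached 6.05 RPKM in the parent, against 15.9 in subclone 1 and 15.95 in subclone 2. The cells of these lines thus carried mRNA for family receptors at levels far above those of the family ligands.

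By mean level the order began with TNFRSF1A, LTBR, TNFRSF12A and TNFRSF21, and the intervals of neighbours in this order did not overlap in any library. TNFRSF21 and TNFRSF10B, next in order, overlapped in 1 library, and TNFRSF10B and TRAF7 in 2. Further down the order was less certain. The intervals of TRAF2 and TRAF4, of TNFRSF14 and TNFRSF10D, of TNFSF9 and TRAF5, and of TRAF5 and TRAF3 overlapped in all 3 libraries. The same held for each neighbouring pair from TNFRSF11A down through TNFRSF1B, TNFSF12, TNFSF13 and TNFRSF10C. A mean of at least 1 RPKM over the libraries was reached by 21 of the 36 genes.

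**Figure D1:**
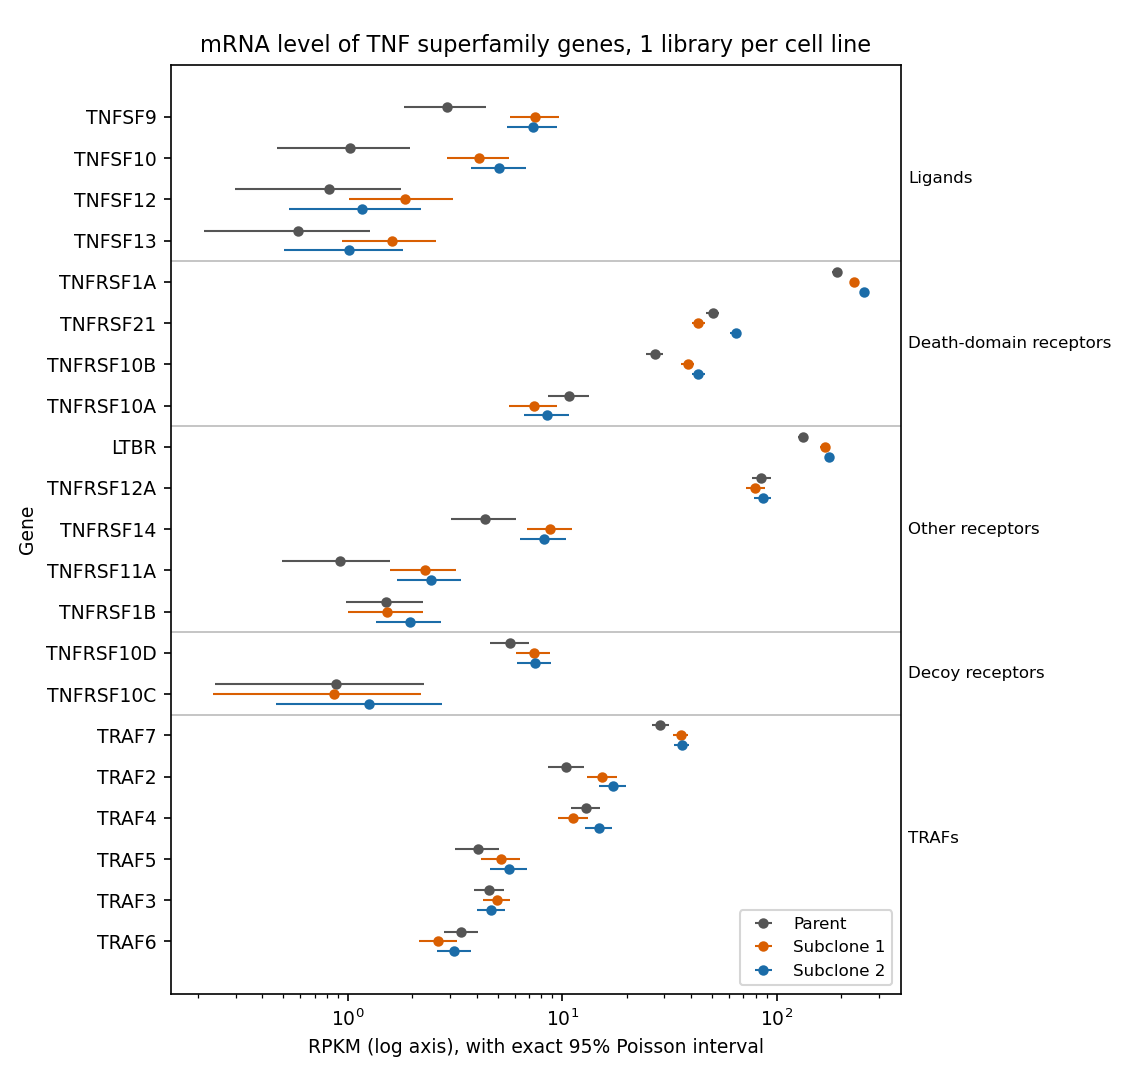
RPKM (log axis) of the 21 family genes with a mean of at least 1 RPKM, grouped by role; each point is 1 library and each bar its exact 95% Poisson interval, which covers counting error only. TNFRSF1A and LTBR lie highest in all 3 libraries, and the ligands TNFSF9 and TNFSF10 lie lower in the parent than in either subclone.

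To see which family genes separated the subclones from the parent, ratios were taken as log2 of (RPKM + 0.1), and a gene was counted where it reached 2-fold and a mean of 1 RPKM. In subclone 1 over the parent 5 of the 21 family genes were at least 2-fold higher (TNFSF9, TNFSF10, TNFSF12, TNFSF13 and TNFRSF11A), against 4.90% of the 11370 genes with a mean of 1 RPKM. None was 2-fold lower, against 1.82% of all such genes. In subclone 2 over the parent 3 of 21 were at least 2-fold higher (TNFSF9, TNFSF10 and TNFRSF11A), against 5.33% of all genes, and none was lower, against 2.16%. Both counts use the same parent library, so they are not independent. TNFRSF11A, TNFSF12 and TNFSF13 were below 1 RPKM in the parent and passed the mean through the subclones, so that they could pass only by being higher there, and the counts are a description. With a pseudocount of 1, TNFRSF11A, TNFSF12 and TNFSF13 fell short of 2-fold in subclone 1 (log2 ratios of 0.77, 0.65 and 0.72) and TNFRSF11A in subclone 2 (0.83). Division by ACTB instead of the deposited scale moved the median of all genes to -0.13 in subclone 1 over the parent, and turned 557 genes higher and 207 lower into 447 and 329, while 4 family genes were then higher (without TNFSF12) and 0 lower. The median log2 ratio of the 21 genes was 0.34 in subclone 1 and 0.42 in subclone 2, beside 0.004 and 0.037 for all genes, and 15 and 19 of the 21 lay above 0, beside 5732 and 6083 of the 11370.

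**Figure D2:**
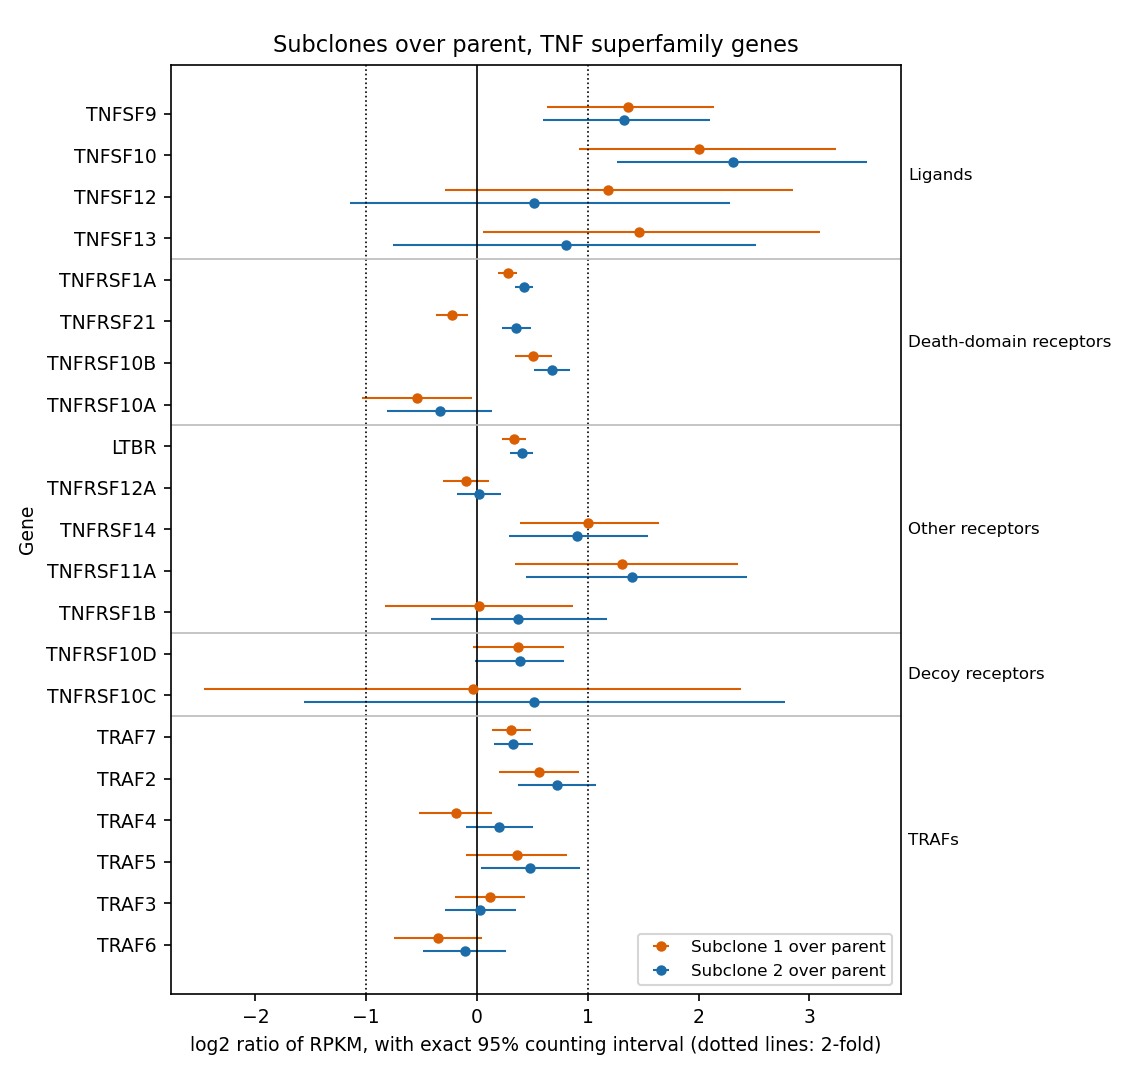
log2 ratio of RPKM (no pseudocount) of each subclone over the parent for the 21 family genes with a mean of at least 1 RPKM; points are ratios of 1 library to 1 library, bars are exact 95% counting intervals and dotted lines mark 2-fold. The intervals of TNFSF9, TNFSF10, TNFRSF14, TNFRSF11A, TNFRSF1A, LTBR, TNFRSF10B, TRAF7 and TRAF2 lie above 0 in both subclones. Those of TNFRSF12A, TRAF3, TNFRSF1B, TRAF4, TRAF6, TNFRSF10C, TNFRSF10D and TNFSF12 include 0 in both. Both ratios use the same parent library, and the share of all genes with intervals above 0 was not counted.

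Among the ligands, TNFSF10 (TRAIL, the ligand of the death receptors TNFRSF10A and TNFRSF10B) had the largest ratio. It was 1.03 RPKM in the parent (9 reads), 4.11 in subclone 1 (37 reads) and 5.09 in subclone 2 (47 reads). This was 4.0-fold higher in subclone 1 (1.90 to 9.43) and 4.96-fold higher in subclone 2 (2.40 to 11.5). Both subclones were above the parent beyond counting error, and the subclones were 1.24-fold apart (0.788 to 1.96), which counting error covers. The lower bound of 1.90 means that 2-fold itself was not resolved in subclone 1.

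TNFSF9 (4-1BB ligand, which co-stimulates T cells through TNFRSF9) was the most abundant ligand. It measured 2.92 RPKM in the parent (22 reads), 7.49 in subclone 1 (58 reads) and 7.31 in subclone 2 (58 reads). The ratios over the parent were 2.57 (1.55 to 4.41) in subclone 1 and 2.50 (1.51 to 4.30) in subclone 2. The subclones differed from each other by a ratio of 0.976 (0.666 to 1.43). Its receptor TNFRSF9 was 0.483, 0.759 and 0.529 RPKM in the parent, subclone 1 and subclone 2, with 13 to 21 reads.

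TNFSF12 (TWEAK, the ligand of TNFRSF12A) and TNFSF13 (APRIL, a B cell survival ligand) lie next to each other on chromosome 17, with no coding gene between their starts. TNFSF12 was 0.814 RPKM in the parent and 1.85 and 1.16 in subclones 1 and 2, from 6, 14 and 9 reads. TNFSF13 was 0.583, 1.61 and 1.02 RPKM, from 6, 17 and 11 reads. The order of the 3 libraries was the same for both genes, with the parent lowest and subclone 1 highest. In subclone 1 over the parent the ratio was 2.27 for TNFSF12 (0.820 to 7.21) and 2.76 for TNFSF13 (1.04 to 8.55), so that the interval of TNFSF12 includes 1. A read-through transcript joins these genes and has an entry of its own in annotations, TNFSF12-TNFSF13, which was not listed; how its reads were assigned is not given in the sources used here, and the values of both genes are uncertain to that extent.

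The other ligands were low. TNFSF15 (TL1A) was 0.565 RPKM in the parent, 0.421 RPKM in subclone 1 and 0.821 RPKM in subclone 2, from 17, 13 and 26 reads, and its ratios over the parent of 0.745 (0.333 to 1.63) and 1.45 (0.759 to 2.85) were within counting error. TNF itself was listed at 1 read in subclone 1 and at none in the parent and subclone 2, where up to 3 reads, or 0.400 and 0.380 RPKM, would be compatible with a count of 0. TNFSF4, TNFSF13B and TNFSF14 had at most 3 reads in any library. No ratio is given for TNF, TNFSF4, TNFSF13B and TNFSF14, since their libraries lie at or near the limit of detection at this depth.

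The upstream sequence of the 3 genes that were 2-fold higher in both subclones is given because these genes were higher together. Each starts 250 bases before the RefSeq transcription start (GRCh38.p14) and ends before the first annotated transcript base, and is written 5′ to 3′ on the strand of the gene. TNFSF10 is at chr3:172523508-172523680 on the minus strand, TNFSF9 at chr19:6530776-6530998 and TNFRSF11A at chr18:62325060-62325286 on the plus strand. Capitals mark a match to the core of the interferon-stimulated response element (GAAA, any 2 bases and GAAA again, on either strand).
TNFSF10: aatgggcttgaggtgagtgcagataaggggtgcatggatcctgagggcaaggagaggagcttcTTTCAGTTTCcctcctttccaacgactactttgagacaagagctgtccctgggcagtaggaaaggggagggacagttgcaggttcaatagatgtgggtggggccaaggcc
TNFSF9: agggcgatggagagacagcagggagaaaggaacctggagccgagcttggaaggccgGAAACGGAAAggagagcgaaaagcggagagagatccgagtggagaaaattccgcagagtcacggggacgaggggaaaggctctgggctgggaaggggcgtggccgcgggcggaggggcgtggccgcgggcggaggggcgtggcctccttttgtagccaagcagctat
TNFRSF11A: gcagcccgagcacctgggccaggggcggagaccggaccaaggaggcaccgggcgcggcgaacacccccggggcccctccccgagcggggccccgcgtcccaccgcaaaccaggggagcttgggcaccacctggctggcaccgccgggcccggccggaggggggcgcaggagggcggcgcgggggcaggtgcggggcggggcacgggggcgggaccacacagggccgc
In TNFSF10 the match reads on the opposite strand from -187 to -178, and in TNFSF9 on the same strand from -194 to -185, counted from the RefSeq start. TNFRSF11A held no such match, and instead 4 GC boxes (GGGCGG), beginning at -228, -80, -58 and -45, whereas TNFSF9 held 2. Over 35116 RefSeq promoters, searched on both strands in the same 250 bases, 3.02% held the response element core and 42.6% a GC box. A TATA box (TATAAA, 10.7% of promoters) began at -31 in TNFSF10, beyond the stretch printed, and was not found in TNFRSF11A. In TNFSF9 it ran from -30 to -25, across the end of the stretch printed at -28. The NF-kB consensus (5.21% of promoters) and the AP-1 site TGANTCA (6.57%) were not found in these 3 windows. A match describes letters only, and its absence says nothing about a factor. Of the 36 genes 27 had a promoter entry, with 37 entries in all, so that some genes had more than 1. Of the 37 entries 4 held the response element core (3.02% of all promoters) and 7 the NF-kB consensus (5.21%). The AP-1 site was held by 5 (6.57%), a TATA box by 4 (10.7%) and a GC box by 25 (42.6%). These counts are a description.

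Of the death-domain receptors, TNFRSF1A (TNF receptor 1) was the most abundant gene of the family. It was 190.4 RPKM in the parent, against 231 in subclone 1 and 255.5 in subclone 2, from 1930, 2402 and 2726 reads. Its ratio over the parent was 1.21 in subclone 1 (1.14 to 1.29) and 1.34 in subclone 2 (1.26 to 1.42). Thus the libraries differed beyond counting error, by less than 1.5-fold. TNFRSF1A lies on chromosome 12 (GRCh38, 6328757 to 6342114, minus strand) near LTBR (6375045 to 6391571, plus strand), with SCNN1A as the only coding gene between their starts. FAS, the receptor of FAS ligand, was close to the detection limit with 4 reads in the parent and 5 and 6 in subclones 1 and 2 (0.323, 0.394 and 0.461 RPKM).

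TNFRSF21 (death receptor 6) was the only one of the 21 genes that lay on opposite sides of the parent in the 2 subclones with both intervals excluding 1. It measured 50.4 RPKM in the parent (828 reads), 43.2 in subclone 1 (729 reads) and 64.5 in subclone 2 (1116 reads). The ratio to the parent was 0.857 in subclone 1 (0.775 to 0.948) and 1.28 in subclone 2 (1.17 to 1.40). Subclone 2 over subclone 1 gave 1.49 (1.36 to 1.64), which stayed below 2-fold.

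The TRAIL receptors TNFRSF10A (DR4) and TNFRSF10B (DR5) both signal death and lie in 1 cluster on chromosome 8 with the decoys TNFRSF10C and TNFRSF10D, with no other coding gene between their starts. TNFRSF10B was 27.0 RPKM in the parent, 38.5 RPKM in subclone 1 and 43.2 RPKM in subclone 2, from 504, 737 and 848 reads. TNFRSF10A was 10.7, 7.38 and 8.52 RPKM in the same order, from 85, 60 and 71 reads. TNFRSF10B was thus lowest and TNFRSF10A highest in the parent. The ratio of TNFRSF10B over the parent was 1.42 in subclone 1 (1.27 to 1.6) and 1.6 in subclone 2 (1.43 to 1.79). For TNFRSF10A it was 0.687 (0.486 to 0.968) and 0.794 (0.571 to 1.1), so that in subclone 2 it was not separated from the parent.

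The balance of the signalling TRAIL receptors, a quantity that no scaling of the libraries can alter, was examined after these values were seen. TNFRSF10B over TNFRSF10A in RPKM was 2.52 in the parent (1.997 to 3.21), 5.22 in subclone 1 (4.01 to 6.90) and 5.07 in subclone 2 (3.98 to 6.56). The intervals of the subclones did not overlap that of the parent. The ratio of these ratios was 2.07 for subclone 1 over the parent (1.44 to 2.99, exact conditional interval), 2.01 for subclone 2 over the parent (1.42 to 2.86) and 0.972 between the subclones (0.668 to 1.41). Both comparisons with the parent share its 85 reads of TNFRSF10A.

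The membrane decoys of TRAIL lack a working death domain. TNFRSF10D (DcR2) was 5.69 RPKM in the parent, against 7.37 in subclone 1 and 7.43 in subclone 2, and its ratios over the parent, 1.29 (0.978 to 1.72) and 1.30 (0.988 to 1.73), were within counting error. TNFRSF10C (DcR1) was 0.884, 0.861 and 1.26 RPKM on 4 to 6 reads. Together these 2 decoys made up 14.8% of the RPKM of the 4 TRAIL receptors in the parent, against 15.2% and 14.4% in the subclones. These genes are close copies of each other and reads may have been split among them in counting.

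TNFRSF11B (osteoprotegerin, a soluble decoy of both TRAIL and RANK ligand) was 0.473 RPKM in the parent and 0.184 and 1.26 in subclones 1 and 2, from 5, 2 and 14 reads. Its mean was below 1 RPKM. Subclone 2 was 6.83-fold above subclone 1 with a wide interval (1.57 to 61.9), and neither subclone was separated from the parent, at 0.390 (0.0371 to 2.38) and 2.66 (0.905 to 9.44). The decoy of FAS ligand, TNFRSF6B, had 1 read in subclone 1 and none in the other libraries.

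**Figure D3:**
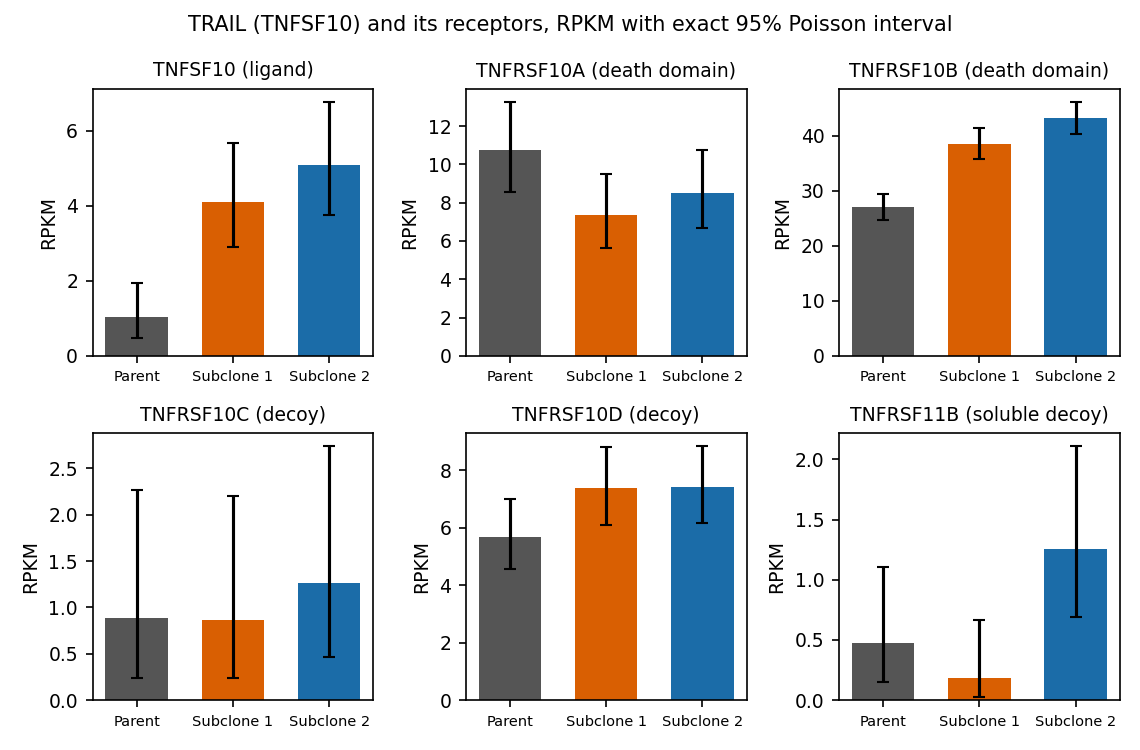
RPKM of the TRAIL ligand gene TNFSF10 and its 5 receptor genes in 1 library per cell line; each panel has its own linear axis from 0, and bars carry exact 95% Poisson intervals. TNFSF10 and TNFRSF10B are lowest in the parent, whereas TNFRSF10A is highest there.

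Among the receptors without a death domain, LTBR (lymphotoxin beta receptor, which feeds the alternative NF-kB pathway) was second in the family. It was 132.6 RPKM in the parent, 167 RPKM in subclone 1 and 175 RPKM in subclone 2, from 1271, 1647 and 1770 reads. The ratios over the parent were 1.26 (1.17 to 1.36) and 1.32 (1.23 to 1.42), and the subclones did not separate from each other at 1.05 (0.980 to 1.12). TNFRSF12A (Fn14, the TWEAK receptor) was 85.0, 79.5 and 86.0 RPKM, from 400, 384 and 426 reads. Its intervals over the parent, 0.811 to 1.08 in subclone 1 and 0.881 to 1.16 in subclone 2, include 1 and leave no room for a 2-fold difference between these libraries.

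TNFRSF14 (HVEM, a receptor of LIGHT that also binds the inhibitory receptor BTLA) was 4.38 RPKM in the parent (34 reads), 8.78 in subclone 1 (70 reads) and 8.20 in subclone 2 (67 reads). Its RPKM ratio was 2.005 in subclone 1 (1.31 to 3.12) and 1.87 in subclone 2 (1.22 to 2.92). On the log2 scale with the pseudocount it reached 0.99 and 0.89, just short of the 2-fold mark. TNFRSF11A (RANK, the receptor of RANK ligand) was 0.924 RPKM in the parent (13 reads), 2.29 in subclone 1 (33 reads) and 2.43 in subclone 2 (36 reads). Its ratios were 2.47 (1.27 to 5.12) and 2.63 (1.36 to 5.41). Both receptors were lower in the parent than in either subclone, with intervals of the ratio that excluded 1. TNFRSF1B (TNF receptor 2) was 1.51, 1.53 and 1.95 RPKM, and its ratios of 1.013 (0.562 to 1.83) and 1.29 (0.749 to 2.26) were within counting error.

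The remaining receptors could not be compared at this depth. TNFRSF18 (GITR) had 3 reads in subclone 1 and none in the parent and subclone 2. TNFRSF17, TNFRSF19, TNFRSF25 and EDAR had at most 2 reads in any library.

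The TRAF adaptors link receptors to ubiquitin ligases and kinases, and none of the 6 with a mean of 1 RPKM reached 2-fold in any comparison. TRAF7 was the most abundant at 28.7 RPKM in the parent, against 35.6 in subclone 1 and 36.0 in subclone 2, with ratios of 1.24 (1.098 to 1.40) and 1.25 (1.11 to 1.42). TRAF2, which recruits the ligases BIRC2 and BIRC3 to TNF receptors, was 10.5, 15.4 and 17.2 RPKM, from 108, 163 and 187 reads. Its ratios of 1.47 (1.15 to 1.89) and 1.65 (1.29 to 2.10) were the largest of the adaptors, among those with a mean of 1 RPKM. TRAF2 and TRAF7 were thus higher in both subclones beyond counting error.

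TRAF6, which serves Toll-like and interleukin-1 receptors as well as RANK, was 3.38 RPKM in the parent and 2.64 and 3.13 in subclones 1 and 2, with ratios of 0.782 (0.593 to 1.03) and 0.927 (0.714 to 1.20). TRAF4 was 12.9, 11.3 and 14.8 RPKM, and subclone 2 was above subclone 1 by a ratio of 1.31 (1.06 to 1.63). TRAF3, a brake on the alternative NF-kB pathway, was 4.57, 4.96 and 4.67 RPKM with ratios of 1.08 (0.870 to 1.35) and 1.02 (0.819 to 1.28). TRAF3 and TRAF6 were therefore not separated from the parent in either subclone. TRAF5 was 4.05, 5.19 and 5.64 RPKM, and its ratio in subclone 2, 1.39 (1.03 to 1.90), excluded 1. TRAF1, itself a known NF-kB target, was low at 0.400, 0.878 and 0.476 RPKM on 8, 18 and 10 reads.

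Between the subclones none of the 21 family genes differed 2-fold, against 1.42% of all genes higher and 1.39% lower in subclone 2. The median log2 ratio of subclone 2 over subclone 1 was 0.12, beside 0.034 for all genes. Under division by ACTB the latter was 0.16, and 161 genes higher and 158 lower became 221 and 120, still with 0 family genes in either direction. With ratios of 1.49 for TNFRSF21, 1.31 for TRAF4, 1.12 for TNFRSF10B (1.02 to 1.24) and 1.11 for TNFRSF1A (1.05 to 1.17), subclone 2 exceeded subclone 1 beyond counting error in these 4 genes of the 21, and it was below subclone 1 beyond counting error in none. The share of all genes past counting error was not counted, so these counts are a description. For TNFRSF10B the lower bound on the log2 scale, 0.023, lay below the median of all genes.

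The proteins with which these receptors work were examined as lists, counted on the same scale and against the same shares of all genes. Of 13 death-signalling proteins none reached 2-fold in either subclone, and RIPK3, also in this list, was listed in no library. The most abundant were BID, at 34.1, 47.8 and 49.1 RPKM in the parent, subclone 1 and subclone 2, and DIABLO, at 40.4, 39.8 and 39.7 RPKM. CASP8, the apical caspase of death receptors, was chosen after its values were seen, and was 30.4, 25.9 and 19.4 RPKM, with ratios of 0.852 (0.737 to 0.986) and 0.640 (0.546 to 0.748). The median log2 ratio of this list was -0.028 in subclone 1 and 0.009 in subclone 2.

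Of 14 ubiquitin ligases and brakes of the receptor complexes 1 was 2-fold higher in each subclone, namely BIRC3 (cIAP2, a ligase that TRAF2 brings to the TNF receptor and a known NF-kB target). BIRC3 was 8.97 RPKM in the parent (211 reads), 30.8 in subclone 1 (745 reads) and 39.2 in subclone 2 (970 reads), ratios of 3.44 (2.95 to 4.02) and 4.37 (3.76 to 5.09). BIRC3 in both subclones stood well above the parent. The most abundant genes of this list were TAX1BP1, at 114.6, 124 and 141 RPKM, and TNIP1, at 27.6, 42.1 and 46.3 RPKM.

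None of 16 kinases of the receptor complexes reached 2-fold, and the most abundant were IKBKG, at 41.0, 34.0 and 38.3 RPKM, and TAB2, at 29.8, 36.7 and 37.6 RPKM. Among 9 NF-kB subunits and inhibitors 1 was 2-fold lower in subclone 1, REL, at 2.23 RPKM in the parent, 0.837 RPKM in subclone 1 and 1.14 RPKM in subclone 2 (26, 10 and 14 reads). NFKBIA, the inhibitor that NF-kB induces, was 35.5, 59.9 and 65 RPKM, with ratios of 1.69 (1.44 to 1.98) and 1.83 (1.57 to 2.14), and BCL3 was 42.5, 49.8 and 54.8 RPKM. No gene reached 2-fold among 7 TRAF-interacting proteins, led by TANK at 25.7, 26.3 and 24.3 RPKM and TRAFD1 at 15.3, 16.4 and 16.4 RPKM. The same held for 5 sheddases and convertases of ligands and receptors, led by ADAM10 at 39.3, 42.1 and 39.2 RPKM and FURIN at 13.1, 13.4 and 13.8 RPKM. Outside the naming rule 2 further family genes had a mean of 1 RPKM. EDA (ectodysplasin, the ligand of EDAR) was 2.10, 0.532 and 0.679 RPKM on 50, 13 and 17 reads, 2-fold lower in both subclones, and RELT was 2.79, 3.45 and 3.37 RPKM.

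Transcripts that TNF commonly induces were counted in the same way. Of 11 with a mean of 1 RPKM 6 were 2-fold higher in subclone 1 (CXCL1, CXCL2, IL8, ICAM1, VCAM1 and SOD2) and 6 in subclone 2 (CXCL1, CXCL2, CXCL3, CCL20, VCAM1 and SOD2), with none lower, against 4.90% and 5.33% of all genes. Of the 16 genes of the list CCL2, IL6 and TNFAIP6 were listed in no library. CSF2 had 2 reads and SELE 1 read in the parent, and both had none in the subclones. The list was chosen with earlier results of these data known. It holds VCAM1, which the study picked as higher by real-time PCR in most of its monoclonal lines. The study also followed VCAM1 as protein and states that its mRNA sequencing of the subclonal cells showed the difference. IL8 is among the genes for which the study lists PCR primers. The counts are therefore a description. CXCL1, a chemokine for neutrophils, was 1.79 RPKM in the parent, against 21.9 in subclone 1 and 21.6 in subclone 2, ratios of 12.2 (6.22 to 27.4) and 12.03 (6.12 to 27.0). SOD2, the mitochondrial superoxide dismutase, was 27.6, 55.3 and 61.5 RPKM, ratios of 2.01 (1.90 to 2.12) and 2.23 (2.11 to 2.36). Both were lower in the parent than in either subclone, and their intervals excluded 1.

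ICAM1, a leukocyte adhesion protein, was the most abundant of this list at 39.0, 84.5 and 75.8 RPKM, followed by TNFAIP2 at 32.9, 62.7 and 63.1 RPKM. In subclone 2 the ratio of ICAM1 was 1.94 (1.75 to 2.15) and that of IL8, a neutrophil chemokine, 1.75 (1.32 to 2.34), both short of 2-fold. VCAM1, another adhesion protein, was 2.35, 15.6 and 29.4 RPKM. CXCL2 was 2.53, 5.27 and 5.32 RPKM, on 14 to 31 reads. IER3, at 51.3, 45.8 and 53.5 RPKM, and TNFAIP8, at 4.53, 6.24 and 9.14 RPKM, were not counted as 2-fold in either subclone. Subclone 2 was 2-fold above subclone 1 in CCL20, at 8.12, 12.2 and 26.1 RPKM, and in CXCL3, at 1.34, 2.42 and 6.17 RPKM. The median log2 ratio of the list was 1.00 in subclone 1 and 1.04 in subclone 2. The induced list and the ligand TNF, which was at or below 1 read, are values of the same libraries set side by side, and the part of any inducer was not tested.

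**Figure D4:**
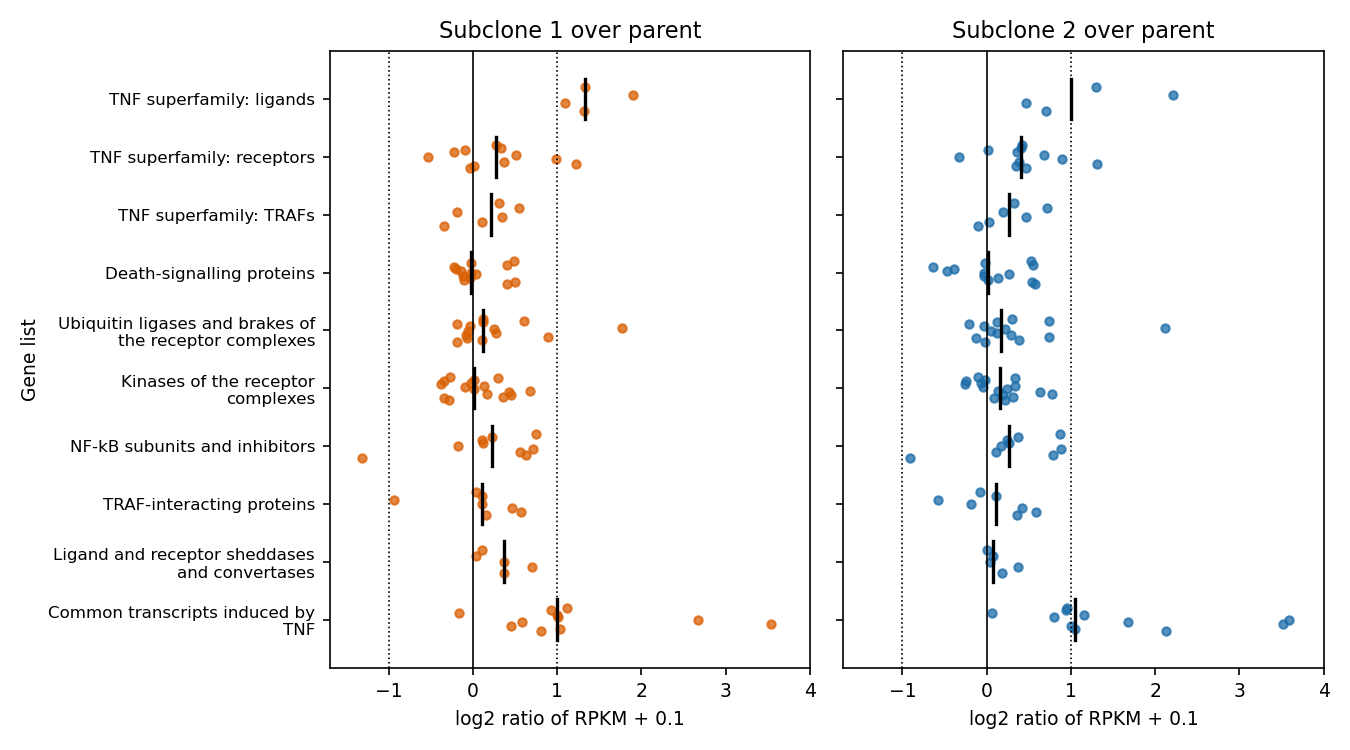
log2 ratio of (RPKM + 0.1) of each subclone over the parent for the genes of each list with a mean of at least 1 RPKM; each point is a gene, black bars are list medians and dotted lines mark 2-fold. The medians of the ligands and of the transcripts induced by TNF lie at or above 1.00 in both panels, and those of the other lists plotted lie below 0.5. The ligand median rests on 4 genes, of which TNFSF12 and TNFSF13 were below 1 RPKM in the parent. The ligand EDA, which is outside the naming rule and lower in both subclones (log2 ratios of -1.80 and -1.50), is not plotted.

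Markers of other cells were read beside these results, because fewer cells of a type and less RNA per cell cannot be told apart in bulk RNA. Of 12 leukocyte markers 7 were listed, summing to 85.0 RPKM in the parent and 127.3 and 112.6 in subclones 1 and 2, most of it from CD68 at 75.3, 112 and 99.6 RPKM and CD79A at 7.79, 11.9 and 10.3 RPKM. The pan-leukocyte gene PTPRC was at 2 reads in the parent and at none in the subclones, and CD3E, CD3D, MS4A1, NKG7 and CSF1R were not listed. The myeloid marker ITGAM was 0.516, 1.097 and 1.204 RPKM, with ratios over the parent of 2.12 (1.002 to 4.80) and 2.33 (1.12 to 5.21), and CD14 had 1, 8 and 0 reads. Endothelial markers (5 of 6 listed) summed to 5.11, 11.9 and 7.61 RPKM with CDH5 and VWF at 2 reads or fewer, and fibroblast markers (5 of 7 listed) to 15.7, 31.1 and 24.3 RPKM with COL1A2 at 1 read or fewer. The fibroblast markers LUM, at 10.1, 23.99 and 21 RPKM, and DCN, at 0.773, 4.42 and 2.75 RPKM, were lowest in the parent and 2-fold higher in both subclones, as TNFSF9 and TNFSF10 were. COL3A1, at 4.42, 2.21 and 0.463 RPKM, went the other way and was 2-fold lower in subclone 2, and COL1A1 had 9, 11 and 1 reads. Of the endothelial markers PECAM1, at 3.33, 9.81 and 4.46 RPKM, was 2-fold higher in subclone 1 and KDR, at 1.36, 1.94 and 3.08 RPKM, in subclone 2, while TEK had 8, 2 and 1 reads. The part of such cells in these results was not tested.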

How the data were processed

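Total RNA of 3 cell lines cultured in DMEM was harvested with Trizol, and 1 TruSeq (Illumina) library was sequenced per line. The authors deposited RPKM values by Entrez number and symbol for genes above 0, and genes absent from a library were taken as 0. The genome build is hg19 per the labels, in the submitters' processing notes. The aligner, counting tool, annotation and use of strand are not given in the sources used here, so near-identical, overlapping and antisense genes may share reads.

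Groups came from the sample titles. The family genes and all gene lists were chosen with earlier results of these data known. Ratios were log2 of (RPKM + 0.1), on the deposited scale, which understates the ratio of low genes. Genes were counted at 2-fold with a mean of at least 1 RPKM over the 3 libraries. With 1 library per line no test was made. Reads were recovered from the steps of the RPKM: 653 and 625 genes with equal reads gave the relative totals, and the absolute totals were the largest at which most of 1576 genes had a length of a whole number of bases (to within 0.02). This held for 85.7% of them, against 42.3% with doubled totals and 93.7% with totals 0.5 times as large, where every length is 2 times as long and so stays whole. Of the 1565 with a reference transcript, 64.6% had a length within 10% of one, against 8.24% and 14.6% at those other totals. The recovery was also run on reads simulated from the recovered totals and lengths. That run checks the method against itself, and not whether the totals and lengths are those of the deposited libraries. Reads of genes with a common divisor can be understated, which widens intervals.

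Named with values were all family genes with a mean of at least 1 RPKM, those at least 2-fold apart with at least 10 reads, the remaining family genes by their range, and from each list the genes past 2-fold and the 2 most abundant. CASP8, CASP10, FADD, IER3, TNFAIP8, CSF2 and SELE were chosen after their values were seen. So were the markers ITGAM, CD14, PTPRC, TEK, CDH5, VWF, COL1A1, COL1A2, TTR, SERPINA1, HNF4A, AFP and APOA1. Gene places came from GENCODE (GRCh38) and promoters from RefSeq (GRCh38.p14), used for identity only because the build differs from hg19. Alternatives were pseudocounts of 0.01 and 1, no filter or a mean of 5 RPKM, rescaling to 1 sum, division by the upper quartile or by ACTB, centring on the median, and 1.5-fold. Python 3.11.15, numpy 2.4.6, pandas 2.3.3, scipy 1.17.1 and matplotlib 3.10.9 were used.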

Additional observations from a re-analysis of the deposited data

Results flagged for a closer look

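TNFRSF21 lay below the parent in subclone 1 (log2 ratio -0.22) and above it in subclone 2 (0.36), so that the subclones were 0.58 apart on the log2 scale. The difference was not tested, because each cell line has 1 library. TNFRSF11B lay likewise on opposite sides of the parent (-1.01 and 1.25), with a log2 ratio of 2.26 between the subclones that rests on 2 reads in subclone 1 and 14 in subclone 2. This difference was not tested either.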

How the results depend on the processing

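No paired analysis was possible because there is a single library for every line, and no replicate could be left out. The count of family genes 2-fold higher in subclone 1 over the parent was 5, and became 2 with a pseudocount of 1 (TNFSF9 and TNFSF10), 10 without a filter and 1 with a mean of at least 5 RPKM. The count higher in subclone 2 over the parent was 3, and became 5 without a filter, 1 with a mean of 5 RPKM and 7 at 1.5-fold. Without a filter 1 gene was 2-fold lower in subclone 1 over the parent, and between the subclones 2 were higher and 4 lower in subclone 2, where 0 had been. At 1.5-fold 2 were lower in subclone 2 than in subclone 1. The median log2 ratio of the family genes stayed between 0.20 and 0.36 in subclone 1 and between 0.35 and 0.42 in subclone 2. Of 396 ratios of single genes under the alternatives 392 lay within their counting interval. The 4 others came from division by ACTB, which moved the median of all genes to -0.13 in subclone 1 over the parent and to 0.16 between the subclones, and gave TNFRSF1A 0.14 and LTBR 0.20 in subclone 1 over the parent and 0.27 and 0.19 in subclone 2 over subclone 1. TNFSF10 ranged from 1.33 to 1.99 and TNFSF9 from 1.12 to 1.36 in subclone 1, while TNFRSF11A (0.77 to 1.30), TNFSF12 (0.65 to 1.17) and TNFSF13 (0.72 to 1.45) lay on both sides of 2-fold there, as TNFRSF11A did in subclone 2 (0.83 to 1.39). Single ratios of TRAF3, TRAF7, TNFRSF1B, TNFRSF10D, TNFRSF12A, TNFRSF14 and TNFSF9 near 0 changed sign under another scaling or centring, each with a counting interval that included 0, and no ratio at or past 2-fold did.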
